A study of Rattus norvegicus with 8 samples.

Results

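Oligodendrocyte lineage marker genes were followed in primary hippocampal cultures of the rat, in the somatic and the process compartment and with or without chronic treatment with picrotoxin (PTX). The markers are 4 genes used for oligodendrocyte progenitors (Olig1, Olig2, Pdgfra and Cspg4) and 5 genes used for myelin-forming oligodendrocytes (Mbp, Mog, Mag, Cnp and Mobp). They were taken by gene symbol, and all 9 were found among the 28909 symbols of the count table. The table is keyed by symbol and holds no other gene identifier and no position. The cultures were hippocampal neurons of Sprague-Dawley rat embryos, plated on porous filter inserts so that somata stayed on the upper side and processes grew to the lower side. From day 18 to day 20 in vitro the medium contained either PTX, a blocker of GABA-A receptors, for 48 h, or the vehicle alone as control. Total RNA depleted of ribosomal RNA was sequenced from somata control, somata PTX, processes control and processes PTX, with 2 libraries per condition and 8 in all. The stated purpose of the design was to compare the effect of PTX between the compartments. The sources used here do not say whether the 2 libraries of a condition came from separate cultures, so the p-values measure the spread between these libraries, which may be technical.

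Oligodendrocytes are the myelin-forming glia of the central nervous system. They arise from proliferating progenitors, which carry the receptor for platelet-derived growth factor (PDGF) and a surface proteoglycan, both of which are lost as the cells mature and switch on the genes of the myelin sheath. Glia of this lineage are a known minor companion of neurons in primary hippocampal cultures, and the mRNAs of some myelin proteins, above all Mbp, are known to be carried into the processes of oligodendrocytes. Olig1 and Olig2 encode related basic helix-loop-helix transcription factors of the lineage, Pdgfra encodes the PDGF receptor alpha, and Cspg4 encodes the proteoglycan NG2, which pericytes also carry. Mbp encodes the basic protein that compacts myelin, Mog and Mag encode adhesion-type glycoproteins of the myelin membrane, Cnp encodes an enzyme of uncompacted myelin that is already present in progenitors, and Mobp encodes a small basic myelin protein. In bulk RNA such as this, fewer cells of a type and less RNA per cell cannot be told apart.

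Library totals ranged from 12290890 to 18455662 counts, but genes outside the mitochondrial genome received only 4702054 to 5491237 counts in processes, against 9517542 to 11227599 in somata. The 9 markers together held 7477 to 12091 reads per library in somata and 4053 to 6269 in processes, which was between 0.0710% and 0.116% of the counts outside the mitochondrial genome. Levels are given as CPM, counts brought to a common library total, after scaling by edgeR's TMM factors, on which 1 read was worth 0.0360 to 0.0425 CPM in somata and 0.101 to 0.117 CPM in processes. Levels were not compared between genes, because no gene lengths were used.

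The labelled cell type, hippocampal neurons, was checked with marker lists. All 8 neuron markers and all 8 astrocyte markers were detected in every library. The summed level of the astrocyte markers, which include Gfap and Aqp4, was 3170 to 4482 CPM in somata and 11416 to 14938 CPM in processes. The higher astrocyte sum in processes came mainly from Gfap, at 1057 to 1781 CPM in somata and 7698 to 11111 CPM in processes. The neuron markers, which include Map2 and Syt1, summed to 1921 to 2294 CPM in somata and to 4135 to 5518 CPM in processes. Microglia markers, such as Csf1r and P2ry12, summed to at most 2.48 CPM, and Schwann cell markers, such as Egr2 and Prx, to at most 4.32 CPM. Markers of pericytes, endothelium and fibroblasts, such as Col1a1 and Col1a2, summed to 16.1 to 50.3 CPM, and the endothelial gene Cldn5 had no read in any library. The pericyte genes of that list, Rgs5, Kcnj8, Abcc9 and Anpep, reached at most 0.804 CPM. The PDGF receptor gene Pdgfrb, kept in another list, was at 5.87 to 13.3 CPM, and the cell source of the Cspg4 reads was not tested. The higher neuron sum in processes came from Map2, a gene whose mRNA is known to be carried into dendrites, at 812 to 985 CPM in somata and 3369 to 4693 CPM in processes. Of the 8 neuron markers, 2 were higher and 6 lower in processes of control cultures and 2 higher and 5 lower in PTX cultures, and of the 8 astrocyte markers, 4 were higher and 2 lower in control and 5 higher and 0 lower in PTX cultures. The part of these cell types in the results below was not tested.

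The 4 progenitor genes were all measured well above the detection limit, and 2 of them, Olig1 and Cspg4, were higher in each of the 4 process libraries than in any of the 4 somata libraries, as were 26.2% of all tested genes. Olig1 was measured at 92.8 and 137 CPM in somata control, 83.5 and 144 CPM in somata PTX, 197 and 250 CPM in processes control and 222 and 290 CPM in processes PTX. The process libraries thus lay above all somata libraries, and in each condition replicate 2 was the higher library. Cspg4 stood at 34.3 and 38.2 CPM in somata control, 40.2 and 37.7 CPM in somata PTX, 49.6 and 45.4 CPM in processes control and 72.6 and 49.6 CPM in processes PTX. Its values again separated the compartments without overlap, with processes PTX replicate 1 farther from the others than any other library.

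Pdgfra was read at 77.7 and 113 CPM in somata control, 63.5 and 101 CPM in somata PTX, 101 and 154 CPM in processes control and 109 and 153 CPM in processes PTX. The ranges of the compartments overlapped, but each process library stood above the somata library with the same treatment and replicate number, at 130%, 136%, 171% and 152% of its level. Olig2 reached 42.8 and 66.4 CPM in somata control, 45.6 and 64.1 CPM in somata PTX, 44.3 and 59.2 CPM in processes control and 59.4 and 68.3 CPM in processes PTX. For this gene the compartments overlapped fully, unlike for its paralogue Olig1.

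Among the myelin genes, Cnp had the most reads, with 387 to 2184 per library, and Mobp the fewest, with 0 to 14. Cnp was found at 56.1 and 85.5 CPM in somata control, 39.4 and 59.7 CPM in somata PTX, 44.8 and 51.9 CPM in processes control and 44.4 and 54.1 CPM in processes PTX. The highest library was somata control replicate 2, and the 4 process libraries fell within the range of the somata libraries. Mbp was found at 10.2 and 26.6 CPM in somata control, 10.1 and 18.4 CPM in somata PTX, 12.2 and 16.2 CPM in processes control and 6.32 and 12.1 CPM in processes PTX. Its 2 somata control libraries differed more from each other than the mean of any condition differed from that of another.

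Mog was low and even, at 2.89 and 3.53 CPM in somata control, 3.34 and 3.18 CPM in somata PTX, 3.12 and 3.05 CPM in processes control and 2.76 and 3.12 CPM in processes PTX. These levels rest on 24 to 93 reads per library. Mag had 21 and 78 reads in somata control, 23 and 54 in somata PTX, 3 and 5 in processes control and 2 and 3 in processes PTX. This corresponds to 0.893 and 3.06 CPM, 0.827 and 2.29 CPM, 0.335 and 0.587 CPM, and 0.230 and 0.302 CPM in the same order, so that every process library was below every somata library, as for 25.1% of all tested genes. Mobp had 2 and 14 reads in somata control, 0 and 10 in somata PTX, 0 and 1 in processes control and 1 and 0 in processes PTX, which is too few for a test.

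**Figure D1:**
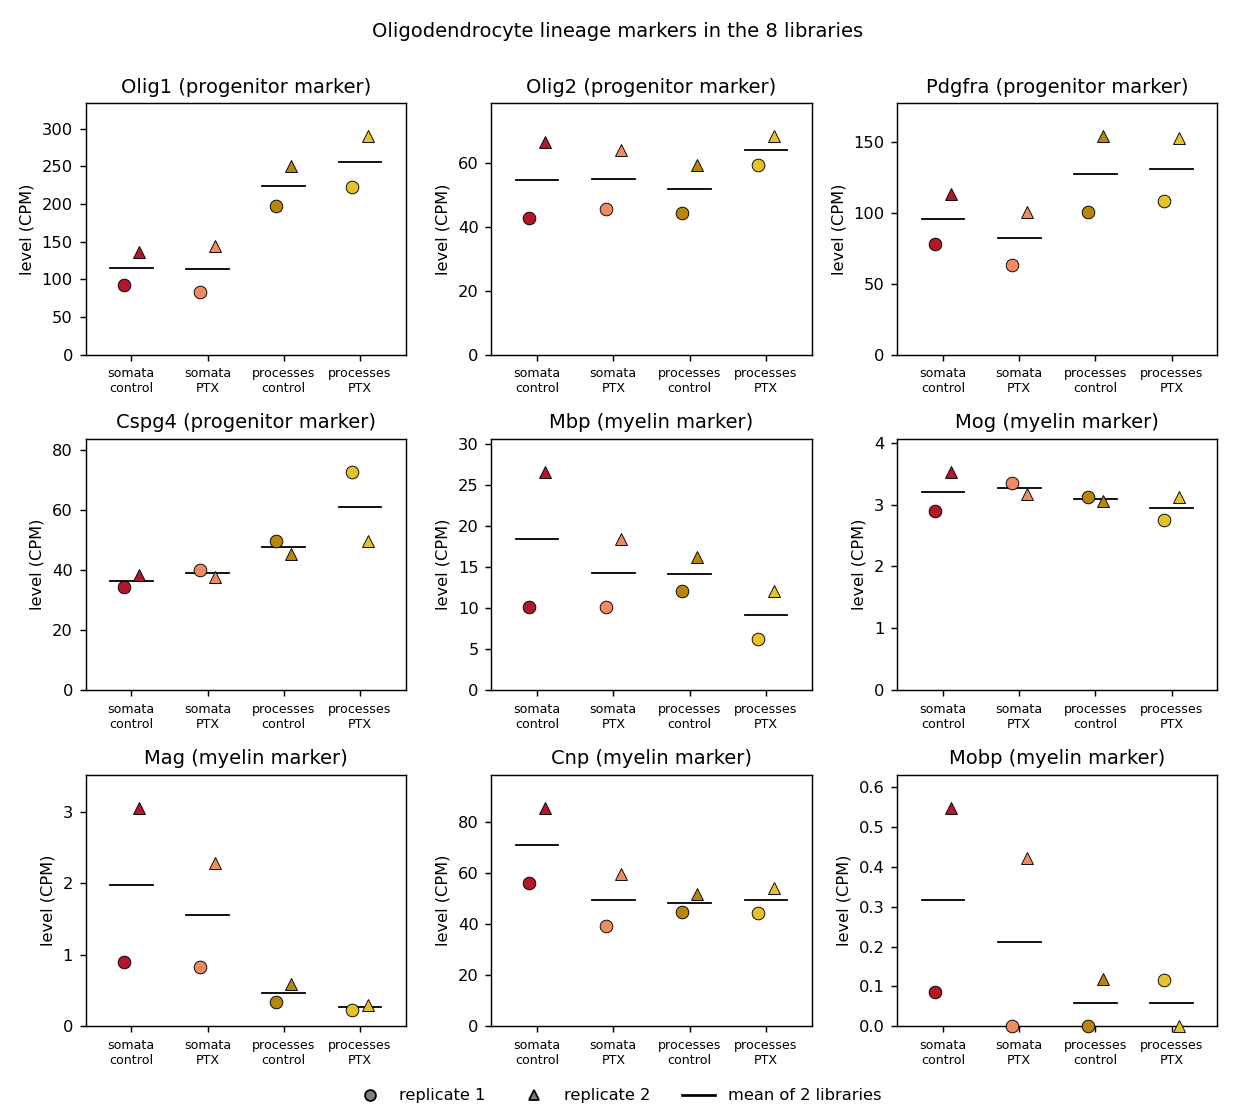
Level of each of the 9 marker genes in CPM (vertical axes, each starting at 0) in the 2 libraries of somata control, somata PTX, processes control and processes PTX. Circles are replicate 1, triangles replicate 2 and lines the mean of the 2 libraries. With TMM scaling, Olig1 and Cspg4 lie above all somata libraries in processes and Mag lies below them, and replicate 2 is above replicate 1 in most conditions. Mag passed the read filter only through its somata libraries, which favoured a lower value in processes.

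The first comparison asked how the markers divided between the compartments in unstimulated cultures. Of the 8 markers with enough reads for a test (more than 20 in at least 2 libraries), Olig1 was higher in processes and none of the others passed the threshold of an adjusted p of 0.05. Olig1 averaged 115 ± 31.1 CPM over the 2 somata libraries and 224 ± 37.8 CPM over the 2 process libraries (SD), a log2 fold change of 0.96 with a standard error (SE) of 0.26 and an adjusted p of 0.0109. For scale, 47.7% of the 14309 tested genes passed in this comparison, 25.8% higher and 21.9% lower in processes, so that 1 of 8 markers is below the general share. Adding the replicate number to the fit as a block, which is described with the replicates further on, brought 5 of 8 markers, Mag included, past the threshold, beside 57.8% of all genes, 29.8% higher and 28% lower. Pdgfra (log2 fold change 0.41, adjusted p = 0.00045) and Cspg4 (0.38, adjusted p = 0.00952) were then higher in processes, and Mag (-2.05, adjusted p = 0.000772) and Cnp (-0.53, adjusted p = 0.000184) were lower. Mag passed the read filter only through its somata libraries, where all 4 had over 20 reads, so that the filter favoured a lower value in processes, and its calls are no support for a direction among the markers. Without the block, the log2 fold changes of these 4 genes were 0.42 (adjusted p = 0.225), 0.39 (adjusted p = 0.0686), -2.10 (adjusted p = 0.0573) and -0.55 (adjusted p = 0.067). Olig2 (-0.08), Mog (-0.06) and Mbp (-0.38) did not pass in either fit. Their 95% intervals without the block were -0.58 to 0.42, -0.59 to 0.48 and -1.35 to 0.58.

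The same question was asked in PTX-treated cultures. Olig1 (log2 fold change 1.17, SE 0.26, adjusted p = 0.00353) and Cspg4 (0.65, SE 0.16, adjusted p = 0.00659) were higher in processes, and Mag (-2.48, SE 0.94, adjusted p = 0.0478) was lower. These 3 of 8 calls, of which Mag is subject to the same limit, stand beside 49.8% of all tested genes, of which 25.7% were higher and 24% lower. With the replicate block, Pdgfra was also called higher (0.69, adjusted p = 6.79e-07, against 0.67 and 0.0592 without) and Mbp lower (-0.64, adjusted p = 0.0036, against -0.61 and 0.29 without), again 5 of 8 markers with Mag, beside 59.5% of all genes, 30% higher and 29.6% lower. Olig2 (0.22), Mog (-0.15) and Cnp (0.00, 95% interval -0.51 to 0.50) were not called. The control and the PTX comparison use different libraries, but they share the fit and its estimate of the spread.

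For the genes with the fewest reads, the reads of both libraries of a condition were added and divided by their TMM-scaled library sizes. Mag in processes then had 22.7% of its somatic level in control cultures (exact 95% interval 9.53% to 46.4%, 8 against 99 reads). In PTX cultures it had 17.9% (5.65% to 43.6%, 5 against 77 reads). Mobp had 17.5% in control cultures (0.418% to 113%, 1 against 16 reads) and 27.6% in PTX cultures (0.635% to 194%, 1 against 10 reads). These intervals cover counting error only and depend on the TMM scaling. Those of Mobp do not exclude equal levels. Mag passed the read filter only through its somata libraries, so its intervals are no support for a direction.

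The Mag call in PTX cultures did not hold without somata PTX replicate 2 (log2 fold change -1.60, adjusted p = 0.206), without either processes PTX library (adjusted p = 0.165 and 0.159) or without either processes control library (adjusted p = 0.0676 for each). The Olig1 call in control cultures was lost without somata control replicate 1 (0.71, adjusted p = 0.0868) or processes control replicate 2 (0.78, adjusted p = 0.085), and the Cspg4 call in PTX cultures without processes PTX replicate 1 (0.35, adjusted p = 0.0654). The directions also depend on the scaling: with library size alone, Olig1, Pdgfra and Cspg4 were lower in processes. So was the median of all genes (-1.86 in control and -1.87 in PTX cultures, against -0.05 in both with TMM). Mitochondrial RNA made up most of the counts of the process libraries but not of the somata libraries. Its part in this shift was not tested.

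**Figure D2:**
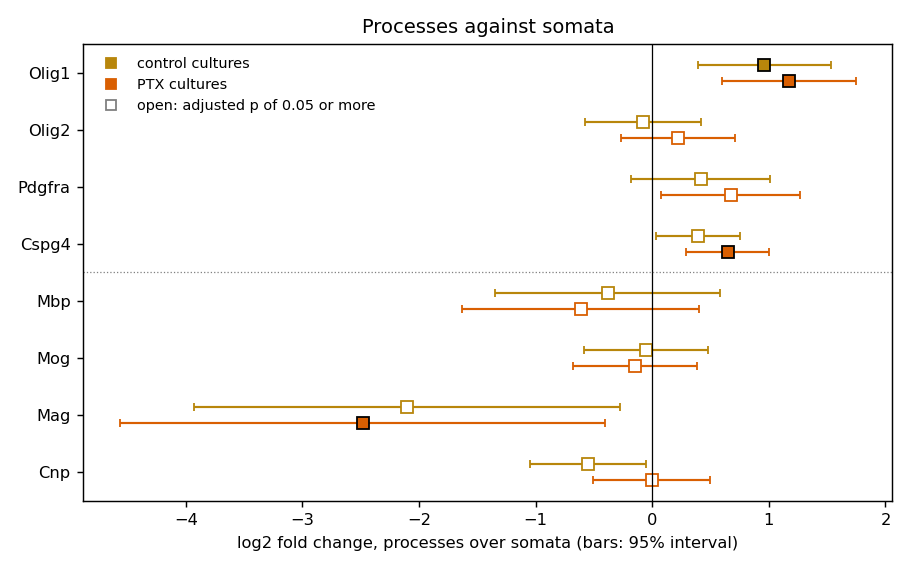
Log2 fold change of each tested marker in processes over somata (horizontal axis), in control cultures and in PTX cultures, with 95% intervals from edgeR's quasi-likelihood fit of all 8 libraries. Filled squares have an adjusted p under 0.05. With TMM scaling Olig1 is to the right of 0 in both cultures (0.96 and 1.17), whereas it is negative with scaling by library size alone. Mag is to the left (-2.10 and -2.48), but passed the read filter only through its somata libraries, which favoured a lower value in processes.

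The 4 progenitor and the 4 tested myelin markers had medians of opposite sign between the compartments. The median log2 fold change of processes over somata was 0.40 for the 4 progenitor genes and -0.47 for the 4 tested myelin genes in control cultures, beside -0.05 for all tested genes. In PTX cultures the medians were 0.66 and -0.38, beside -0.05. No test was made of these medians, and that of the myelin markers includes Mag. The opposite sign held for these markers and not for the 13 other early lineage genes described further on. Their median was -0.29 in control cultures, with 12 of 13 values negative, and -0.09 in PTX cultures. Sox10, Gpr17, Enpp6 and Matn4 among them passed the read filter only with their somata libraries, as Mag did. Within a library the proportion of the markers does not depend on the scaling. Myelin genes took 22.1% and 25.2% of the reads on the 9 markers in somata control, 18.8% and 19.5% in somata PTX, 13.4% and 12.4% in processes control and 10.4% and 11.04% in processes PTX. The somata libraries were all above the process libraries, and within each compartment both PTX libraries were below both control libraries. Exact 95% intervals of the shares, which cover counting error only, ranged from 21.1% to 23.0% for somata control replicate 1 and from 9.54% to 11.4% for processes PTX replicate 1. Cnp supplied most of the myelin reads, and Olig1 had the most reads of the 4 progenitor genes in every library. In PTX cultures Olig1 was at 83.5 and 144 CPM in somata and 222 and 290 CPM in processes. Olig2 was at 45.6 and 64.1 CPM and at 59.4 and 68.3 CPM in the same order. The lower shares in processes of PTX cultures stood beside a level Cnp and a higher sum of the 4 progenitor genes, at 233 and 347 CPM in somata PTX and 463 and 561 CPM in processes PTX.

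**Figure D3:**
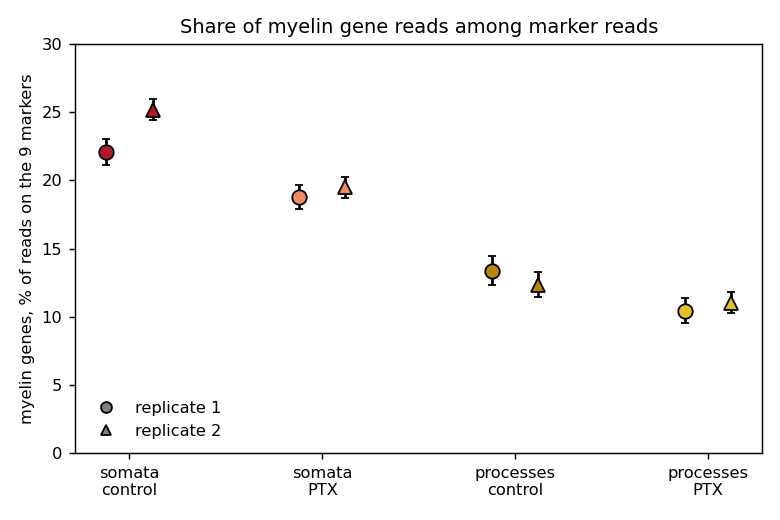
Reads on the 5 myelin genes as a percentage of the reads on all 9 markers (vertical axis, from 0) in each library, with exact 95% intervals for counting error. The 4 somata libraries lie between 18.8% and 25.2% and the 4 process libraries between 10.4% and 13.4%, with PTX below control in each compartment.

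Olig1 and Olig2 are encoded by closely related genes, and their reads were compared within each library, a comparison chosen after the values were seen. There were 2.17 and 2.06 Olig1 reads per Olig2 read in somata control and 1.83 and 2.25 in somata PTX. In processes the ratio was 4.45 and 4.23 in control and 3.74 and 4.25 in PTX libraries. Every process library thus had a higher ratio than any somata library, whatever the scaling. Reads shared by near-identical stretches of related genes are of uncertain origin, and whether strand was used in counting is not given in the sources used here.

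The second comparison, the effect of 48 h of PTX, gave no marker past the threshold in either compartment. In somata 0 of 8 markers were called, beside 3.59% of all tested genes, and in processes 0 of 8, beside 3.74%. At an unadjusted p under 0.05 there was 1 marker in somata, Cnp, beside 15.6% of all genes, and 0 in processes, beside 16.6%. DESeq2 and edgeR's likelihood ratio test also called 0 markers in both compartments. Cnp averaged 70.8 ± 20.8 CPM (SD, n = 2) in somata control and 49.5 ± 14.3 CPM (SD, n = 2) in somata PTX, a log2 fold change of -0.52 (95% interval -1.002 to -0.03, adjusted p = 0.279). With the replicate block Cnp fell by 0.52 on the log2 scale in somata (adjusted p = 0.000645), as 1 of 8 markers beside 14% of all genes, 6.79% of them lower. In processes Cnp was level, at 48.4 ± 5.01 CPM in control and 49.3 ± 6.83 CPM in PTX libraries (SD, n = 2), a log2 fold change of 0.03 (95% interval -0.49 to 0.55).

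Mbp in processes averaged 14.2 ± 2.86 CPM in control and 9.19 ± 4.07 CPM in PTX libraries (SD, n = 2). The log2 fold change was -0.61 (SE 0.49, adjusted p = 0.603), and with the block it was -0.66 and passed the threshold (adjusted p = 0.0334), as 1 of 8 markers beside 11.2% of all genes, 6.09% of them lower. Olig2 in processes averaged 51.7 ± 10.5 CPM in control and 63.8 ± 6.30 CPM in PTX libraries (SD, n = 2), with a log2 fold change of 0.30 (adjusted p = 0.573, and 0.0659 with the block). Cspg4 in processes had a log2 fold change of 0.36 (95% interval 0.00 to 0.72, adjusted p = 0.309, and 0.0766 with the block). For the remaining genes the log2 fold changes in somata were -0.01 (Olig1), 0.00 (Olig2), -0.22 (Pdgfra), 0.10 (Cspg4), -0.38 (Mbp), 0.02 (Mog) and -0.37 (Mag). In processes they were 0.20 (Olig1), 0.04 (Pdgfra), -0.07 (Mog) and -0.76 (Mag), and the interval of Mag, from -3.65 to 2.13, leaves its response undetermined at this depth.

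The medians of the progenitor and the myelin genes were 0.00 and -0.38 in somata and 0.25 and -0.34 in processes, beside -0.01 for all tested genes in both compartments. Whether PTX acted unequally on somata and processes was tested as an interaction, which gave 0 of 8 markers, with an adjusted p of 1 for each, and 0 genes overall. Before adjustment, 572 genes had a p under 0.05, which is 4% of the tested genes, and 0 of them were markers. The likelihood ratio test and DESeq2 each called 4 genes and the fit with the block 15 genes, none of them a marker. The interaction of Cnp was 0.55 (SE 0.32), with an adjusted p of 0.208 with the block.

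**Figure D4:**
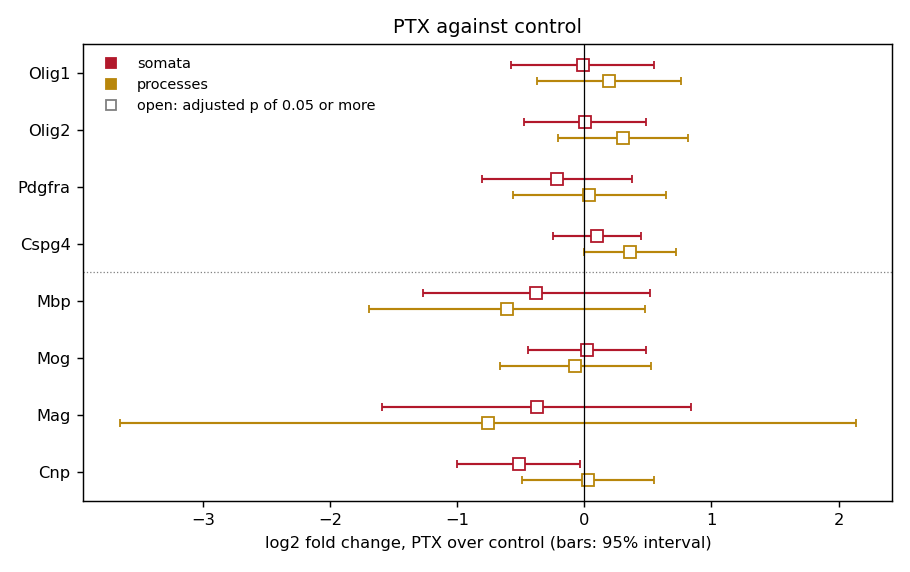
Log2 fold change of each tested marker in PTX over control (horizontal axis), in somata and in processes, with 95% intervals from the fit of all 8 libraries. All squares are open, which marks an adjusted p of 0.05 or more, and the interval of Cnp in somata ends just below 0 (-1.002 to -0.03).

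More markers were called between the replicate numbers (6 of 8) than for PTX (at most 1 of 8 in the same fit). The 2 counts differ in precision, since the replicate coefficient rests on all 8 libraries and each PTX contrast compares 4. For Olig1 the SE was 0.072 for the replicate and 0.101 and 0.103 for PTX in somata and processes. Over all tested genes, PTX called 14% in somata and 11.2% in processes, beside 12.1% for the replicate. The libraries labelled replicate 2 had higher levels than those labelled replicate 1 in all 4 conditions for 6 of the 8 tested markers, beside 14.9% of all tested genes. In the fit with the block, the coefficient of replicate 2 over replicate 1 was positive and past the threshold for the same 6 markers, beside 12.1% of all genes, 5% of them higher and 7.11% lower. The log2 coefficients were 0.52 for Olig1 (adjusted p = 3.59e-05), 0.45 for Olig2 (adjusted p = 0.00019) and 0.58 for Pdgfra (adjusted p = 1.73e-06). Among myelin genes they were 0.96 for Mbp (adjusted p = 5.9e-06), 1.52 for Mag (adjusted p = 0.000529) and 0.45 for Cnp (adjusted p = 0.000246). Cspg4 (-0.14, adjusted p = 0.307) and Mog (0.09, adjusted p = 0.786) were not called. Progenitor and myelin genes were thus both higher in replicate 2, with the largest coefficients in Mag and Mbp. What the replicate number marks is not given in the sources used here.

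Other genes of the lineage were counted in the same contrast. Of 13 tested early lineage genes, 8 were higher in replicate 2 and 0 lower, led by Gpr17, a receptor of committed progenitors (1.43), Bcas1, a gene of newly formed oligodendrocytes (1.13), Pcdh15 (0.69) and the transcription factor Sox8 (0.54). Of 14 tested mature genes, 7 were higher and 1 lower, led by the tight junction gene Cldn11 (1.98), Ugt8, an enzyme of myelin lipid synthesis (0.95), and Gpr37 (-0.70). Of the other cell types, 2 of 8 astrocyte markers were higher and 0 lower, and 4 of 8 neuron markers were lower and 0 higher. In the list of pericyte, endothelial and fibroblast genes, 4 of 4 tested genes were lower: Col1a2 (-1.48), Col1a1 (-1.20), Dcn and Lum. These are fibroblast genes, and the pericyte and endothelial genes of the list had too few reads for a test. The summed level of that last list was 34.2 to 50.3 CPM in replicate 1 and 16.1 to 24.3 CPM in replicate 2. The part of these cell types in the results above was not tested.

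**Figure D5:**
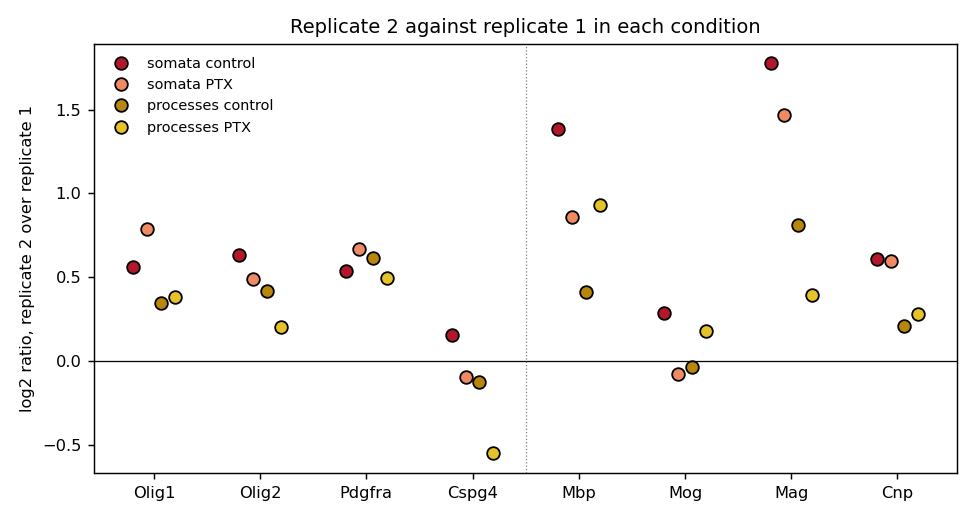
Log2 ratio of the level in replicate 2 over that in replicate 1 (vertical axis) for each tested marker, with 1 point for each of the 4 conditions. All 4 points lie above 0 for Olig1, Olig2, Pdgfra, Mbp, Mag and Cnp, and the points of Cspg4 and Mog lie on both sides.

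Other genes of the lineage were counted in the same comparisons from lists of 15 early lineage and 22 mature oligodendrocyte genes, of which 14 and 22 were in the table and 13 and 14 had enough reads. In control cultures 3 of 13 early genes were lower in processes and 0 higher, beside 21.9% lower and 25.8% higher among all tested genes: Gpr17 (log2 fold change -1.73, adjusted p = 0.0389), the matrix protein gene Tnr (-1.12, adjusted p = 0.00129) and Sox10, a transcription factor of the whole lineage (-0.79, adjusted p = 0.0483). In PTX cultures 2 of 13 were lower, Gpr17 (-2.04) and Tnr (-0.68), and 1 was higher, Sox6 (0.49), beside 24% and 25.7% of all genes. The shares of lower genes are thus near those of all genes. In the process libraries Sox10 had 18, 20, 20 and 18 reads and Gpr17 had 18, 46, 8 and 19. Both genes therefore passed the read filter only with their somata libraries, which favoured a lower value in processes. Their calls are no support for a direction. Sox6, Tnr and Ptprz1 of this list are also expressed by neurons or astrocytes.

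Of the 14 mature genes, 4 were lower and 1 higher in processes of control cultures, and 4 were lower and 2 higher in PTX cultures, beside the same shares of all genes as above. The lower genes included Omg, a myelin glycoprotein gene also active in neurons (-1.66 and -1.51), Myrf, which encodes the transcription factor that switches on the myelin genes (-1.10 and -1.27), and Plekhh1 (-0.77 and -1.02). Car2, the gene of a carbonic anhydrase, was higher in both cultures (1.203 and 1.11), although lower with scaling by library size alone. With the replicate block, 1 early gene was higher and 6 were lower in control cultures and 2 were higher and 4 lower in PTX cultures, and of the mature genes 2 were higher and 8 lower in control and 2 higher and 6 lower in PTX cultures. Among all tested genes the block gave 28% lower and 29.8% higher in control cultures and 29.6% and 30% in PTX cultures. The lower genes counted with the block include Sox10, Gpr17, Enpp6, Fa2h and Cldn11. These passed the read filter only with their somata libraries, the limit given for Mag.

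Several of these calls rest on single libraries. The Gpr17 call was not made by DESeq2 in either culture (adjusted p = 0.116 in control and 0.0579 in PTX). In control cultures it was lost without somata control replicate 2 (-0.83), processes control replicate 1 (-1.17) or processes control replicate 2 (-2.60), and in PTX cultures without somata PTX replicate 2 (-1.16), either processes PTX library (-1.64 and -2.69) or either processes control library (-2.04 for each). Sox10 was lost in DESeq2 (adjusted p = 0.137) and without any of 6 libraries, all but somata control replicate 1 and somata PTX replicate 1, at -0.56 to -0.91. Myrf was lost in control cultures without somata control replicate 2 (-0.70) or processes control replicate 1 (-0.83), and in PTX cultures without processes PTX replicate 1 (-1.10). Plekhh1 was lost in control cultures in DESeq2 (adjusted p = 0.0952) and without somata control replicate 1 (-0.51) or either processes control library (-0.95 and -0.61). Tnr was lost in PTX cultures without somata PTX replicate 2 (-0.39) or processes PTX replicate 2 (-0.51). Sox6 was lost without somata control replicate 2 (0.49), somata PTX replicate 1 (0.30) or processes PTX replicate 2 (0.27), with upper quartile scaling (0.31) and with at least 10 reads in every library (0.42), and was negative with library size alone (-1.33). Omg and Car2 kept their calls without any 1 library.

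For PTX, edgeR's quasi-likelihood test called 0 of 13 early and 0 of 14 mature genes in either compartment. At an unadjusted p under 0.05 there were 1 early and 5 mature genes in somata, beside 15.6% of all genes, and 0 and 3 in processes, beside 16.6%. The likelihood ratio test and DESeq2 each called 1 gene, Tnr, in somata. With the replicate block, 6 of 13 early and 6 of 14 mature genes were lower and 0 higher in PTX somata, beside 6.79% lower among all tested genes. The early genes were Gpr17 (-1.01), Enpp6 (-0.82), Bcas1 (-0.72), Tnr (-0.71), Sox6 (-0.37) and Sox8 (-0.32). The mature genes included Gpr37 (-1.07), Fa2h (-1.06), Myrf (-0.74), Car2 (-0.42) and Tspan2 (-0.35). Gpr17 stood at 6.50 and 17.8 CPM in somata control and at 3.24 and 8.81 CPM in somata PTX, so that the 2 conditions overlapped, with PTX below control in each replicate number. In processes the block gave 2 of 13 early genes lower (Gpr17 and Bcas1) and 3 of 14 mature genes lower (Gpr37, Myrf and Car2), with 0 higher, beside 6.09% lower among all tested genes. Markers of other cell types were called in the same fit. In somata 2 of 8 astrocyte markers were lower (Aqp4 and Gja1), and 4 of 8 neuron markers were lower and 2 higher. Of the 4 tested fibroblast genes, 2 were higher in somata (Dcn and Lum). In processes 1 astrocyte marker was lower and 1 higher, 4 neuron markers were lower and 3 higher, and the Schwann cell marker Egr2 was higher. Their part in the counts of lineage genes was not tested.

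Of the genes for ligands of the PDGF receptors, Pdgfb was higher in PTX somata and Pdgfa lower in PTX processes, whereas Pdgfra was not called. The interaction with the compartment was not called for either ligand gene (adjusted p of 1 for each). Pdgfb, which encodes a PDGF chain, was at 6.21 and 5.64 CPM in somata control and at 14.0 and 11.9 CPM in somata PTX. The log2 fold change was 1.13 (SE 0.20, adjusted p = 0.0111). In processes Pdgfb was at 4.46 and 3.05 CPM in control and 8.73 and 5.83 CPM in PTX libraries, a log2 fold change of 0.94 (adjusted p = 0.0888, and 0.00707 with the block). Pdgfa, which encodes the chain that acts on the alpha receptor alone, was at 19.6 and 15.6 CPM in processes control and at 10.8 and 10.6 CPM in processes PTX, and fell by 0.72 on the log2 scale (SE 0.16, adjusted p = 0.032). In somata its log2 fold change was -0.37 (adjusted p = 0.213). Of the 5 genes of this list, which also holds Pdgfc, Pdgfd and the receptor gene Pdgfrb, no other was called for PTX. The Pdgfb call was lost without either somata control library or without somata PTX replicate 1 (adjusted p = 0.0617, 0.124 and 0.0979), and the Pdgfa call without processes control replicate 1 (-0.55, adjusted p = 0.206), either processes PTX library (adjusted p = 0.125 and 0.142) or either somata control library (adjusted p = 0.0535 and 0.0534), and with only the 4 libraries compared (adjusted p = 0.0862). Between the compartments, Pdgfa was higher in processes of control cultures (0.63, adjusted p = 0.00495, and -1.19 with scaling by library size alone), Pdgfrb was lower in control and PTX cultures (-0.91 and -0.90), and Pdgfb was lower in PTX cultures (-0.84), a call lost without somata PTX replicate 1 (-0.72) or processes PTX replicate 2 (-0.57). With the block Pdgfb was also lower in control cultures (-0.66, adjusted p = 0.00962, against -0.65 and 0.0537).

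Myelin genes are known targets of SOX transcription factors, among them SOX10, and their promoters were searched for the core motif of this family, ACAAAG, or CTTTGT on the other strand. The windows were 300 bases long, from 250 bases before to 50 bases after a transcript start listed in the RefSeq promoter table of the assembly GRCr8, and 7 of the 9 markers matched an entry. Mag, Cnp and 1 of the 2 Mbp promoters held 1 match each and Mobp held 8, whereas Olig2, Pdgfra and Cspg4 held 0. Of all 33469 promoters of that length, 18.8% held at least 1 match, and 3 held 8 or more. The Mobp matches start at -242, -230, -220, -209, -197, -142, -131 and -120 from the listed transcript start. Within each run they are near-evenly spaced in similar sequence. Whether they are copies of a repeat was not tested, and they are not counted here as separate sites. A match is a description of the sequence and not of binding. The stretches around the motif are shown for Mag, the 1 marker below every somata library in all process libraries, for Mobp, which held the most matches, and for Cnp, with the motif in capitals and the strand of the gene read 5′ to 3′; they lie at chr1:95291182-95291205 (Mag, minus strand), chr10:86011292-86011315 (Cnp, plus strand), chr8:128747003-128747026 and chr8:128747092-128747115 (Mobp, plus strand).
Mag: caagggcccCTTTGTgcccccctc
Cnp: ttttaagtaACAAAGaggtggcgg
Mobp, first: tttgttggcCTTTGTtctctcttt
Mobp, second: ttgtgtggcCTTTGTgcggccttt
The motifs start 152 bases before the listed transcript start in Mag, 203 in Cnp, and 220 and 131 in Mobp. For Mobp the labels give the order shown here and not the order of the matches in its promoter. In Mag and Mobp that start lies inside the gene as RefSeq bounds it, downstream of its 5′ end, so that the motifs are closer to that end.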

How the data were processed

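RNA-seq counts of 8 libraries were used. The authors sequenced ribosome-depleted RNA with a directional library kit, and the deposited counts are whole-number reads per gene symbol, not normalized. The paper's methods name Trimmomatic, Subread subjunc and featureCounts with an Ensembl annotation, whereas the submitters' processing notes name STAR, featureCounts, edgeR and Rnor_6.0, and which aligner made the deposited counts was not resolved. The deposited tables of the authors' 2 PTX comparisons hold log2 fold changes, log2 CPM, likelihood ratios, p-values, FDR and gene biotypes, and were not used. The 14309 of 28909 symbols that exceeded 20 reads in 2 or more libraries were scaled by TMM and fitted with 1 coefficient per condition over all 8 libraries (edgeR 4.0.16, R 4.3.3), with glmQLFit, glmQLFTest and Benjamini-Hochberg adjustment over all tested genes, called at an adjusted p under 0.05. The authors' methods state the likelihood ratio test, which was an alternative, as were DESeq2 1.42.0, other scalings, other filters, a replicate block, the 4 libraries compared and leaving out each library. CPM use TMM sizes, and log2 CPM for likeness a prior count of 2.

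The replicate numbers were taken as pairing the libraries from the data, not from the labels. Over 14309 genes, replicate 2 minus replicate 1 in somata control had a Pearson r of 0.54 with the same difference in somata PTX, and the other 5 pairs of conditions had r from 0.274 to 0.367, and the block lowered the common dispersion from 0.0132 to 0.00459. The contrast of the replicate numbers was added after the data were seen. Members and gene lists were chosen with earlier results of these data known. All 9 members are named, and of each companion list at most 4 called genes per comparison, those with the largest change and a mean of at least 2 CPM, other genes being named after their values were seen. Median depth in processes is lower, so changes are less precise there. Some single genes are not reported.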

Additional observations from a re-analysis of the deposited data

How the results depend on the processing

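The replicate block raised the number of tested markers called from 0 to 1 for PTX in somata (Cnp) and in processes (Mbp), from 1 to 5 between the compartments of control cultures and from 3 to 5 in PTX cultures, and changed no other call of a marker. With no filter the same counts were 1, 1, 5 and 5. In control cultures, 3 markers were called by the likelihood ratio test, DESeq2 or upper quartile scaling, 2 with at least 10 reads in every library, 4 with only the libraries compared, and 8 of 8, all lower in processes, with library size alone, as in PTX cultures (8). Leaving out each library in turn gave 0 to 3 markers in control and 2 to 4 in PTX cultures, and 0 for PTX in both compartments and for the interaction. The median difference of progenitor over myelin genes for PTX in processes was 0.33 with no filter, 0.32 with at least 10 reads in every library or only the libraries compared, and 0.43 to 0.66 without 1 library; for PTX in somata it was -0.088 to 0.58 and between compartments of PTX cultures 0.77 to 1.36, and in control cultures 0.65 to 1.11 and for the interaction 0.22 to 0.62.

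Signs changed as follows, and the cause was not tested. Scaling by library size alone also shifted the median of all genes between the compartments. With library size alone, processes over somata was -0.84 (Olig1), -1.37 (Pdgfra) and -1.42 (Cspg4) in control cultures, -0.65 (Olig1), -1.60 (Olig2), -1.14 (Pdgfra) and -1.19 (Cspg4) in PTX cultures, -0.60 and -0.71 for Car2, -1.19 for Pdgfa in control and -1.33 for Sox6 in PTX cultures. Near 0, Olig1 for PTX in somata was 0.050 with library size alone, Olig2 -0.014 with upper quartile scaling, and Cnp between compartments of PTX cultures 0.013 with DESeq2 and 0.0083 with the block. Leaving out each library in turn, values of both signs were met for PTX in somata, with Olig2 -0.28 to 0.34, Mog -0.12 to 0.16, Olig1 -0.46 to 0.32, Pdgfra -0.59 to 0.077, Mbp -0.91 to 0.47, Mag -1.26 to 0.76. For PTX in processes the ranges were Pdgfra -0.24 to 0.38, Cnp -0.12 to 0.16, Mog -0.16 to 0.013, Olig1 -0.0092 to 0.38. Between compartments of control cultures the ranges were Olig2 -0.36 to 0.26, Mbp -0.91 to 0.47, Mog -0.19 to 0.088. Between compartments of PTX cultures the ranges were Cnp -0.27 to 0.33, Olig2 -0.0036 to 0.49. For the interaction the ranges were Mbp -1.07 to 0.30, Mog -0.23 to 0.049, Mag -1.52 to 0.50, Olig1 -0.13 to 0.66, Olig2 -0.039 to 0.59, Pdgfra -0.034 to 0.63, Cspg4 -0.043 to 0.51.

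All-gene counts moved too: for PTX in somata 513 genes became 972 with the likelihood ratio test, 1141 with no filter, 2002 with the block and 116 to 568 without 1 library. In processes 535 became 949, 1129, 1601, 299 with only the libraries compared, and 97 to 481. Between compartments 6823 and 7121 became 13462 and 13499 with library size alone. Depth of 4702054 to 5491237 counts outside the mitochondrial genome in processes limits Mag, Mobp and Mog.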

Other observations

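The genes whose levels over the 8 libraries were most like the mean of the 4 progenitor markers were Rcc2, Fgfrl1 and Dock1, at a root mean square difference of centred log2 CPM of 0.0397, 0.0723 and 0.0808. The progenitor markers themselves differed from their mean by 0.159 to 0.287. For the mean of the 4 tested myelin markers the most like genes were Pcdhb5, G0s2 and Plekhg3, at 0.141, 0.143 and 0.153, where the myelin markers differed from their mean by 0.237 to 0.645. Both rankings cover 10202 genes whose mean reached 5 CPM, and a prior count of 0.5 in place of 2 gave the same 6 genes. Among pairs of tested markers, Olig2 and Mog were the most alike (0.26) and Olig1 and Mag the least (1.52).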
